A study of Mus musculus with 6 samples.

Results

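RNA-seq libraries of mNS at passages 72, 77 and 85 were set in passage order, to describe which genes and gene groups drifted. Whether the passages come from a single continuous culture is not stated in the labels, so drift here means a difference in passage order. The cells named mNS are mouse glioma cells labelled as glioma stem-like cells and grown as neurospheres in a serum-free DMEM/F12 medium with B-27, heparin, EGF and basic FGF. These 3 libraries are 3 of the 6 in the series, and the others come from GL261, a mouse glioma line grown in medium with 10% serum and labelled as differentiated glioma cells, at passages 17, 33 and 34 (the passage field of the last says 33). The labels name no genotype, strain or treatment of the mNS cells and give 1 library per passage, so passage, time in culture and library cannot be told apart and the genes below were chosen by order and size, without a test. Of 12151 genes in the deposited table, 10380 had a mean of at least 5 CPM over the 3 mNS libraries and were kept, and 1771 lay below that limit. CPM are read counts scaled by the submitters to the size of each library.

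Neurospheres are floating aggregates that grow from cells with properties of neural stem cells under EGF and FGF, and glioma cells grown this way are widely used as a model of glioma stem cells. Imprinted genes, such as H19, are expressed from the allele of 1 parent under the control of DNA methylation, which can change in long-kept cultures. Interferon-stimulated genes encode antiviral and antigen-presenting proteins, and many of them carry in their promoters a repeated GAAA motif, the interferon-stimulated response element, which is bound by interferon regulatory factors. Notch ligands such as Dll3 act in the choice between progenitor and neuron.

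The gene list with the most rising members was that of the interferon response, and promoter sequences from RefSeq (GRCm38.p6; 250 bases before to 50 after the annotated start) show its element. The core searched for was GAAANNGAAA on either strand. Promoters were matched for 8407 of the kept genes (81.0%), and 3.41% of these held the core. It was in 15 of the 60 rising genes with a promoter (25%) and in 1 of the 30 falling genes (3.33%). Within the interferon response list it was in 19 of 33 members (57.6%), and among rising genes outside that list in 9 of 51 (17.6%). Stretches with the core before the start were taken from 11 rising genes. Those of Trim12c and Apol9a, close to the start, and of Tm4sf1, Plxnc1 and Dhrs3, further from it, are not shown. The stretches below, close to the start, run 5′ to 3′ on the strand of the gene, with 1 match to the core in capitals. In Oas1a, Irgm1 and Gbp3 another match overlaps it and runs on into the lower-case letters. Oas1a, Trim30a, Gbp3 and Irgm1 are members of the list, and Irgm2 and Gbp7 are not.
Oas1a: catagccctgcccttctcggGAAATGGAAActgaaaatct
Trim30a: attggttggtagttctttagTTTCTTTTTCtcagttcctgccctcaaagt
Gbp3: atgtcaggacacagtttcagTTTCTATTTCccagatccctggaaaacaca
Irgm1: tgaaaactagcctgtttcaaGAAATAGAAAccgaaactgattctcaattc
Irgm2: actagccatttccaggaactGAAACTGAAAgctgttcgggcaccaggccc
Gbp7: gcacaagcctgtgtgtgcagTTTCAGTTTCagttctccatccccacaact
They lie at chr5:120907526-120907565 (minus strand), chr7:104465200-104465249 (minus), chr3:142559985-142560034 (plus), chr11:48871421-48871470 (minus), chr11:58214893-58214942 (plus) and chr3:142530263-142530312 (plus). In Oas1a, Irgm1 and Irgm2 the core reads on the strand of the gene, and in Trim30a, Gbp3 and Gbp7 on the opposite strand, where it appears as TTTC, 2 bases and TTTC. A match describes the letters only and says nothing of binding in these cells.

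Depth was even, with 12826599, 12534422 and 13689479 reads in listed genes at passages 72, 77 and 85, so that 1 read was worth 0.0755, 0.0773 and 0.0708 CPM. The 95% interval that read counting alone gives to a ratio of libraries (exact Clopper-Pearson; it covers counting error only, as copies of 1 molecule were not marked) had a median half-width of 0.42 on the log2 scale for genes at 5 to 10 CPM, 0.22 at 10 to 50 CPM and 0.106 above 50 CPM. Passages 77 and 85 lay closer together (SD of the differences in log2(CPM + 1) 0.149 over the kept genes) than passages 72 and 77 (0.225), although 8 passages separated the first pair and 5 the second. GL261 at passages 33 and 34 also had an SD of 0.149. No pair of libraries agreed within counting noise: the chi-square per degree of freedom was 3.34 for passages 77 and 85 and 9.50 for 72 and 77.

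Most genes stayed close to their level. From passage 72 to 85 the median difference over the kept genes was -0.0015 in log2(CPM + 1), and 92.5% lay within 0.5 either way. A gene was called when log2(CPM + 1) moved the same way at both steps and by at least 1 in all, which is about a 2-fold change. By this rule 78 genes rose (0.751% of the kept genes) and 42 fell (0.405%). A difference of at least 1 between passages 72 and 85, wherever passage 77 lay, was found in 125 genes. In 96.0% of them passage 77 lay between those levels. A large difference between the end passages makes such a middle value likely, so this share does not show that genes follow passage order. The exceptions were Irf7, which was at 4.08, 3.94 and 10.3 CPM at passages 72, 77 and 85, and Cited1, Col11a2, Col2a1 and Itpr3, which were lowest at passage 77. No gene was higher or lower at passage 77 than at both other passages by at least 1. With no size asked, 28.3% of the genes were higher at each step and 28.7% were lower at each; outside the counting interval from 72 to 85 lay 23.8% upward and 24.6% downward.

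More of the drift came in the first step. A rising gene had made a median 72.2% of its change by passage 77, and 63 of the 78 had passed the midpoint by then. Among falling genes the median was 64.5%, and 35 of the 42 had passed it. Changes of at least 1 within a single step were found in 27 genes upward and 17 downward from passage 72 to 77, and in 4 upward and 2 downward from 77 to 85, so the calls rest in large part on the passage 72 library. All 78 and all 42 had a fold whose counting interval lay beyond 1.5, and both steps lay outside counting error in 55 rising and 33 falling genes. The intervals come from the same reads that chose the genes by order and size, so they lend the calls no separate support. Levels were mostly low, with a mean under 20 CPM in 50 of the rises and 27 of the falls. The members just inside the limit were Lgals9 (34, 50.2 and 69.4 CPM) and Irgm1 (76.7, 110.3 and 156 CPM) for rises, and Plagl1 and Epb4.1l4b for falls; just outside lay Igtp (14.8, 22.1 and 30.4 CPM), Tacc1, Cdh2 (97.4, 54.3 and 48.4 CPM) and 1500004A13Rik.

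**Figure D1:**
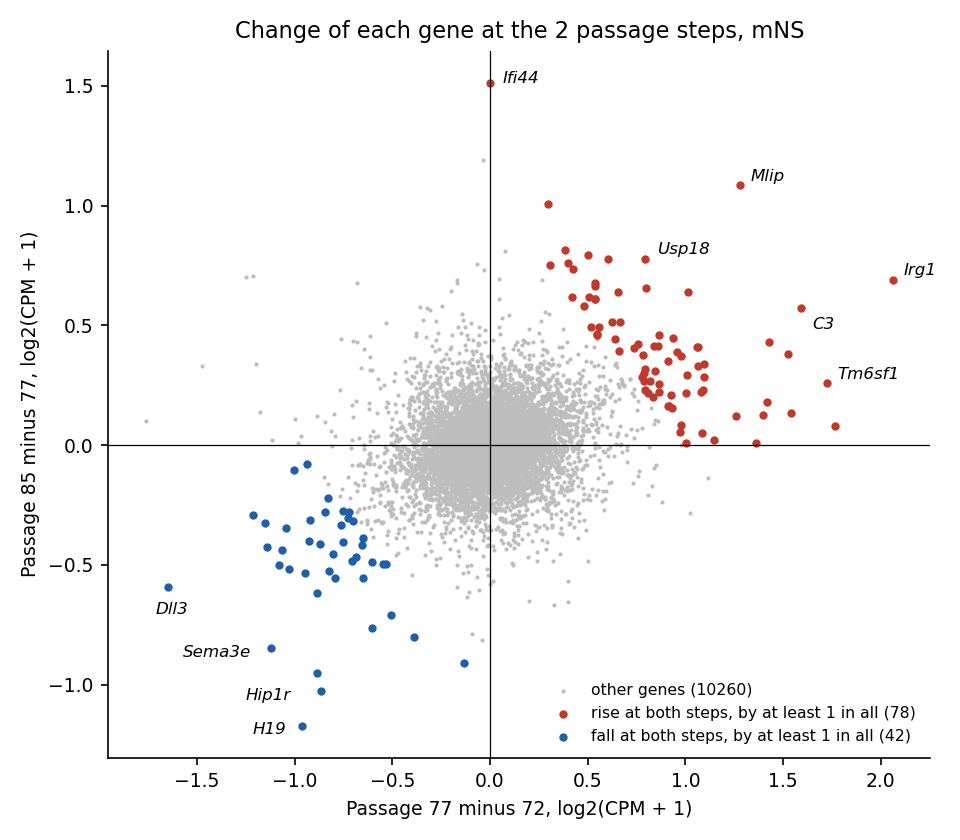
Change of each kept gene in log2(CPM + 1) from passage 72 to 77 (horizontal axis) and from 77 to 85 (vertical axis), with the 78 rising genes in red, the 42 falling genes in blue and all others in grey. The called genes spread further along the horizontal axis than along the vertical one, and Ifi44 sits on the vertical axis because all of its change came after passage 77.

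Irg1 had the largest rise, and the genes set beside it here, which act in innate defence, were grouped after their values were seen. Irg1, which encodes the mitochondrial enzyme that makes itaconate in activated macrophages, was at 14.8, 65.0 and 105.5 CPM at passages 72, 77 and 85. That is a 7.13-fold rise (95% counting interval 6.14 to 8.32), and a difference of 2.75 in log2(CPM + 1). C3, the central component of complement, was at 8.83, 28.7 and 43.1 CPM, a 4.88-fold rise. Lcn2, the siderophore-binding protein lipocalin, rose from 3.4 over 11.7 to 15.5 CPM. Il33, an alarmin cytokine, rose from 59.0 over 125 to 166 CPM (2.81-fold, 2.59 to 3.05), and the transcription factor gene Cebpd from 28.0 over 75.5 to 82.6 CPM. In all of these the lowest library was passage 72 and the highest passage 85. The same genes were low in GL261 in the case of Irg1 (0.522 to 0.867 CPM), C3 (0.373 to 1.23) and Lcn2 (0.0745 to 0.299), while Cebpd lay between 26.6 and 29.9 CPM there.

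Mlip, Tm6sf1, Rassf4 and Rgs16 were among the 14 largest rises and in no list. Mlip, a lamin-interacting protein of muscle with the next largest difference after Irg1 (2.37), was at 2.72, 8.04 and 18.2 CPM, a 6.70-fold rise (4.71 to 9.77) that was spread over both steps. Tm6sf1 was at 9.97, 35.3 and 42.3 CPM, and Rassf4 at 2.79, 9.2 and 12.7 CPM. Rgs16, a brake on G-protein signalling, was at 4.15, 12.8 and 14.6 CPM. In Tm6sf1 and Rgs16 the 2 later passages lay close together and passage 72 apart. Rises picked out after their values were seen include the surface protein gene Tm4sf1 (194, 366 and 468 CPM), the phospholipid-binding annexin Anxa1 (166, 258 and 351 CPM) and the fatty acid carrier Fabp5 (51.6, 99 and 114 CPM).

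**Figure D2:**
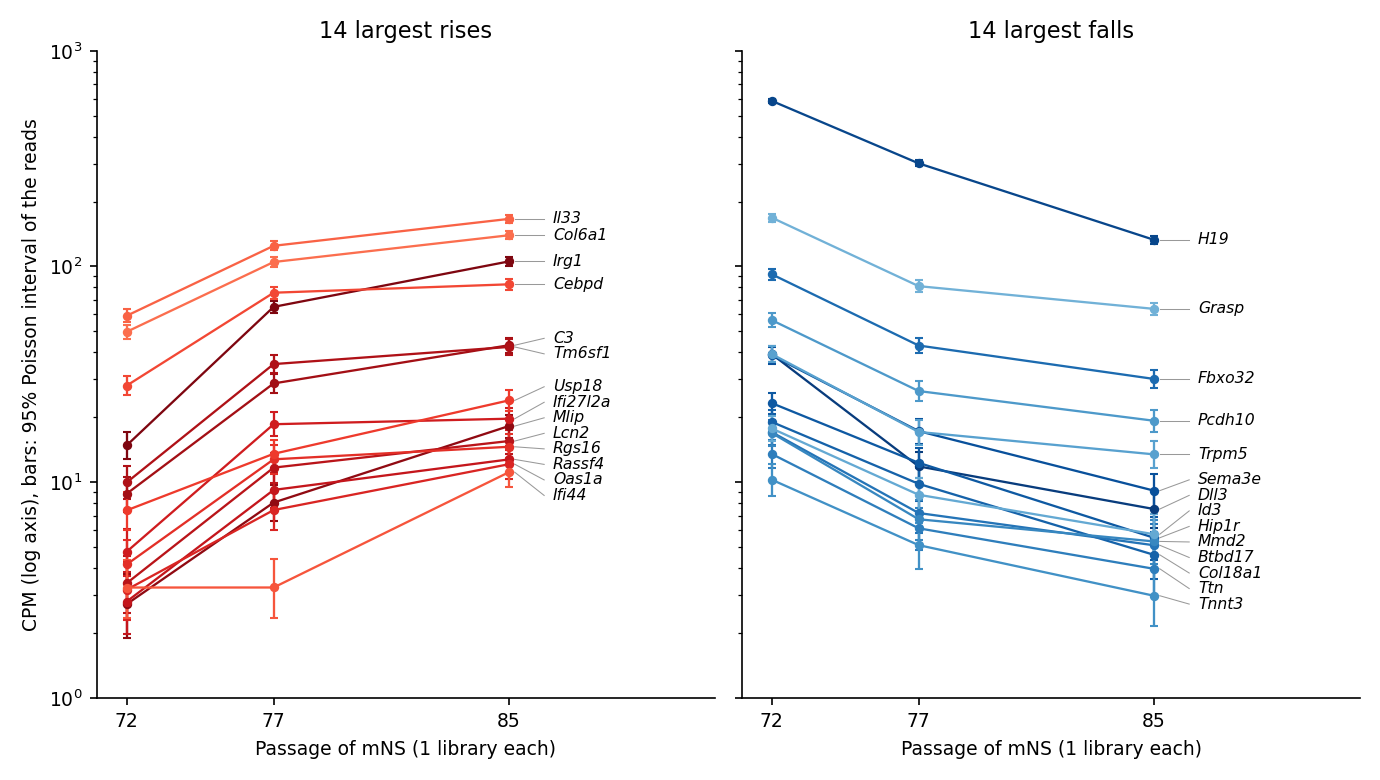
CPM (log axis) of the 14 largest rises (left) and the 14 largest falls (right) among named genes in the mNS libraries at passages 72, 77 and 85; bars are 95% Poisson intervals of the reads of each library. Irg1 goes from 14.8 to 105.5 CPM and H19 from 586 to 133 CPM, and in most genes the line is steeper before passage 77 than after it.

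The interferon response list had the most rising members, and its median difference was larger in the second step (8 passages) than in the first (5 passages). Of its 50 symbols 49 were in the table and 40 were kept; 13 of these rose (32.5% beside 0.751% of all kept genes) and none fell. Another 16 were higher at each step by less than the size asked, which makes 29 of 40 higher at both steps, and none was lower at both. The median over the list was 0.69 from passage 72 to 85, and the medians of the separate steps, which need not add up to it, were 0.27 to passage 77 and 0.45 from there on; over all kept genes the medians of the steps were -0.0014 and 4.97e-06. Summed over the 49 genes in the table, the list went from 1410 over 1694 to 2223 CPM. The list was chosen with a rise of interferon genes over mNS passages already known, so its shares are a description only.

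The called members with the largest differences were Oas1a, Usp18, Ifi44 and Ifitm3. Oas1a, an oligoadenylate synthetase that senses double-stranded RNA, was at 3.17, 7.42 and 12.1 CPM, a 3.82-fold rise (2.71 to 5.49). Usp18, the protease that removes Isg15 from proteins and restrains interferon signalling, was at 7.4, 13.5 and 23.9 CPM. Ifitm3, a membrane protein that blocks virus entry, was at 22.4, 45.1 and 58.7 CPM. Each of these was higher at every later passage. Ifi44 was at 3.25, 3.25 and 11.1 CPM, from 43, 42 and 157 reads: its first step was within counting error, and its whole rise came between passages 77 and 85. Other rising members, given by name only as the rule takes 4 a list, were Rtp4, Oasl2, Trim30a, Gbp3, the RNA sensor Dhx58, Parp14, Xaf1, Irgm1 and Oas1b, with differences from 1.01 to 1.30 in log2(CPM + 1). The Oas, Gbp, Trim and Irgm genes belong to families of related genes, some of them alike in sequence, and how reads shared between genes were counted is not stated.

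Among transcription factors Irf7 reached the size asked, with a difference of 1.15 from passage 72 to 85. It was not called because passage 77 lay below 72, a first step within counting error. The other factors and sensors named here did not reach that size. Irf9, an interferon regulatory factor that carries the signal to the nucleus, was at 28.4, 32.1 and 43.9 CPM, and its partner gene Stat2 at 18.9, 24.4 and 31.0 CPM. The RNA sensor genes Ddx58 (77.6, 80.3 and 111 CPM) and Ifih1 (36.7, 37.1 and 50.7 CPM) had nearly all of their difference after passage 77. Members that were lower at passage 85 than at 72 were Cxcl10, a chemokine (23.3, 13.0 and 14.3 CPM), Rsad2 (49.7, 34.3 and 38.9 CPM), Trim21 and Ifit1, so the list did not move as a whole. These factors, sensors and lower members were picked out after their values were seen.

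Interferon-inducible genes were also found among the 49 rising genes that were in no list, grouped here after their values were seen. Ifi27l2a, one of the 14 largest rises, was at 4.76, 18.6 and 19.7 CPM, so that nearly all of its change came before passage 77. The guanylate-binding proteins Gbp7 (25.6, 34.1 and 58.5 CPM) and Gbp9 (6.72, 12.1 and 16.5 CPM), the immunity-related GTPase Irgm2 (9.74, 13.4 and 21.1 CPM) and the ubiquitin-conjugating enzyme of the Isg15 pathway Ube2l6 (5.96, 9.97 and 16.1 CPM) rose at both steps. Mr1, which presents metabolites to T cells, was at 2.87, 6.03 and 8.35 CPM, and Casp4, an inflammatory caspase, at 5.06, 10.1 and 11.9 CPM. In GL261, Gbp7 (114 to 153 CPM) and Irgm2 (86.6 to 120 CPM) lay above every mNS library.

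Genes of lipid, metal, redox and glycogen handling made up another set of rises outside the lists, also grouped after their values were seen. The copper-carrying ferroxidase Cp was at 39.2, 84.2 and 87.2 CPM, the lipid carrier Apod at 12.4, 18.7 and 26.8 CPM and the phospholipase Pla2g4a, which frees arachidonic acid, at 9.89, 18.6 and 23.2 CPM. Ch25h, a cholesterol hydroxylase, rose from 3.77 over 8.58 to 8.64 CPM and was listed at 0 in GL261. The glutathione transferases Gstm2 (3.02, 5.95 and 7.58 CPM) and Mgst3 (3.1, 6.03 and 7.58 CPM) rose side by side. Ppp1r3c, which targets a phosphatase to glycogen, was at 10.3, 23.2 and 28.5 CPM.

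Genes of MHC class I antigen presentation were higher as well, but mostly before passage 77. Of 17 kept genes 15 were higher at both steps, against 28.3% of all genes, and 2 rose by the size asked (11.8%, against 0.751%). Nlrc5, the transactivator of MHC class I genes, rose from 16 over 35.3 to 41.6 CPM (2.60-fold, 2.22 to 3.05). Psmb9, a subunit of the immunoproteasome, rose from 6.87 over 12.1 to 16.4 CPM. The light chain B2m was at 219, 305 and 346 CPM and the classical heavy chain gene H2-K1 at 108, 174 and 207 CPM, below the size asked. Tapbp, the tapasin that holds class I molecules at the peptide transporter, was at 60.9, 56.4 and 60.5 CPM and was the 1 kept member below its first level. The endoplasmic reticulum proteins Canx, Calr and Pdia3, which also fold other proteins, differed by at most 0.14. Tapbp, Canx, Calr and Pdia3 were picked out after their values were seen. The list median was 0.66 from passage 72 to 85, and the medians of the steps were 0.48 and 0.18.

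**Figure D3:**
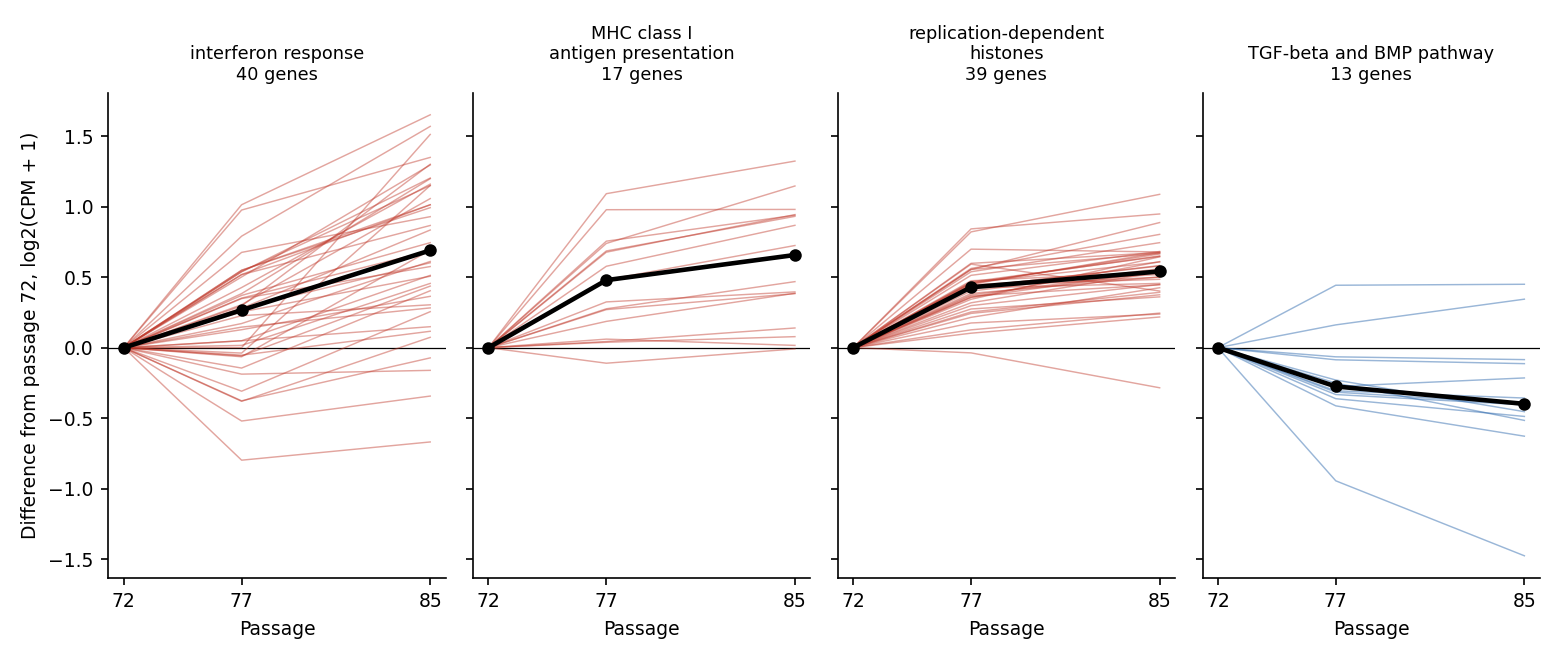
Difference from passage 72 in log2(CPM + 1) of each kept member (thin lines) of 4 gene lists, with the list median in black. The interferon median goes to 0.27 at passage 77 and 0.69 at passage 85, while the medians of the other lists make most of their change before passage 77.

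Genes of the extracellular matrix moved in both directions. Of 37 kept genes 6 rose (16.2%, against 0.751% of all kept genes) and 1 fell (2.70%, against 0.405%), and the list median was 0.12. Col6a1, a chain of collagen VI, rose from 49.8 over 104.9 to 139 CPM (2.80-fold, 2.57 to 3.07), and its neighbour Col6a2 from 7.32 over 13.3 to 17.6 CPM. Col3a1, a chain of fibrillar collagen, rose from 85.2 over 130.1 to 223 CPM, and Thbs1, the matrix glycoprotein thrombospondin, from 26.8 over 47.3 to 75.2 CPM. In the other direction Col18a1, a basement membrane collagen, fell from 19 over 9.82 to 4.60 CPM. The cartilage-type collagens Col2a1 (52.3, 22.6 and 24.9 CPM) and Col11a2 (209.5, 96.3 and 97.6 CPM) were lowest at passage 77 and so were not called. Itga7, a laminin receptor subunit, was the 1 integrin of 10 kept that rose (10%, against 0.751% of all genes), from 10.8 over 29.3 to 29.5 CPM. Fibroblast markers were few: 7 were listed and 2 kept, Col3a1 and Col1a1 (8.46, 4.56 and 5.52 CPM), while Pdgfrb was at or below 0.151 CPM in every mNS library.

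Replication-dependent histone genes shifted together by less than the size asked. Of 39 kept genes 36 were higher at both steps (92.3%, against 28.3% of all genes), with a median of 0.54. By at least 1 rose 1 of them (2.56%, against 0.751%), Hist1h2be, at 132, 233 and 281 CPM. The list summed to 5417, 7041 and 7852 CPM. Genes of DNA replication (median -0.02 over 37) and of mitosis (0.04 over 35) did not shift with them, and none was called in either list. The proliferation marker Mki67 was at 847, 854 and 879 CPM, and Ccnd1, the cyclin of the first gap phase, at 2394, 2487 and 2385 CPM. Histone transcripts are short (median 620 bases, against 3512.5 over all kept genes with a length), and short transcripts drifted upward as a class: with the genes split by length into 4 equal groups, the median difference was 0.08 in the shortest and -0.08 in the longest. Centred on transcript length, the histone median was 0.44. Most histone messages lack a poly(A) tail and these libraries were made from RNA depleted of ribosomal RNA rather than selected for poly(A), so they are measured here; the copies are near-identical and single genes are uncertain.

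Metabolic genes leaned upward by small amounts, which for the respiratory chain did not hold when centred on transcript length. Of 24 kept genes of cholesterol synthesis and uptake 19 were higher at both steps (79.2%, against 28.3% of all genes) and 1 was lower at both (4.17%, against 28.7%), with a median of 0.29 and no called member. Hmgcs1, an early enzyme of the pathway, was at 595, 783 and 877 CPM (1.47-fold, 1.43 to 1.52), the mevalonate kinase partner Pmvk at 46.4, 68.1 and 78.7 CPM and the demethylating enzyme Nsdhl at 37.8, 54.2 and 61.6 CPM. Pmvk and Nsdhl, which had the largest differences of the list, were picked out after their values were seen. Of 72 kept genes of the respiratory chain and ATP synthase 39 were higher at both steps (54.2%) and 4 lower, with a median of 0.11. Of 74 genes of mitochondrial ribosomal proteins 37 were higher at both steps (50%) and 5 lower, also with a median of 0.11, and of 19 glycolytic genes 10 were higher and 2 lower, with a median of 0.12. None of these 3 lists had a called member. Centred on transcript length, the respiratory chain median was -0.0078.

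Falling genes were led by Dll3 and H19. Dll3, a divergent Notch ligand that acts within the cell and marks neural progenitors, was at 39.3, 11.8 and 7.51 CPM at passages 72, 77 and 85, which is 5.23-fold lower at the end (4.24 to 6.51). H19, an imprinted noncoding RNA expressed from the maternal allele, was at 586, 301 and 133 CPM, 4.41-fold lower (4.19 to 4.64). It kept falling after passage 77, by 1.17 on the log2(CPM + 1) scale over 8 passages, beside 0.96 over the 5 passages before. Both were lowest at passage 85, and in GL261 they lay between 1.57 and 4.11 CPM for Dll3 and between 0.969 and 1.66 CPM for H19.

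Among imprinted genes the shift was downward in most. Of 14 kept members of the list 7 were lower at both steps (50%, against 28.7% of all genes) and 1 was higher at both (7.14%, against 28.3%). By the size asked 2 fell (14.3%, against 0.405%), and 11 were lower outside counting error (78.6%, against 24.6%). The list was chosen with the fall of H19 already known, so these shares are a description only. Plagl1, which encodes a zinc-finger regulator of other imprinted genes, fell from 143 over 86.6 to 71.2 CPM. Kcnq1ot1, the noncoding RNA that silences its cluster in cis, was at 142, 90.7 and 83.5 CPM, Phlda2 at 7.62, 4.87 and 3.68 CPM and Impact at 179, 162 and 137 CPM. Mest and Gnas differed by -0.19 and -0.09. Igf2, the growth factor gene that lies next to H19, was below the limit, at 0.453, 0.464 and 0.850 CPM, and its fold cannot be told from 1 at this depth (counting interval 0.65 to 6.09). DNA methylation enzymes had a median of -0.16 over 7 genes with none called; the maintenance methyltransferase gene Dnmt1 was at 575, 554 and 520.3 CPM.

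Other fallers lay near H19 on chromosome 7, a region looked at after the values were seen and centred on a gene with a large fall. Within 1 Mb on each side of H19 (142575529 to 142578143 in GRCm38, minus strand), 15 genes were kept and 14 of them had a difference below 0, as had 50.3% of all kept genes; chromosome 7 had the lowest median of all chromosomes (-0.087). The 4 that fell, against 0.405% of all kept genes, were H19 itself, Tnnt3, Lsp1 and Trpm5. Tnnt3, a troponin of fast muscle, fell from 10.3 over 5.10 to 2.97 CPM, and Lsp1, an actin-binding protein of leukocytes, from 7.47 over 6.73 to 3.12 CPM. Trpm5, a cation channel of taste cells, fell from 39.3 over 17.1 to 13.5 CPM. Cd81, which lies between H19 and Trpm5, was at 613, 565 and 568 CPM, and differed little. So did Ctsd, on the far side of Lsp1, at 381, 366 and 375 CPM. Kcnq1ot1, also in the region, was at 142, 90.7 and 83.5 CPM, a difference of -0.76 from passage 72 to 85. Phlda2 had a difference of -0.88. Trpm5 overlaps Tssc4 (47.6, 42.7 and 40.8 CPM) on the other strand, and whether the counting used strand is not stated.

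**Figure D4:**
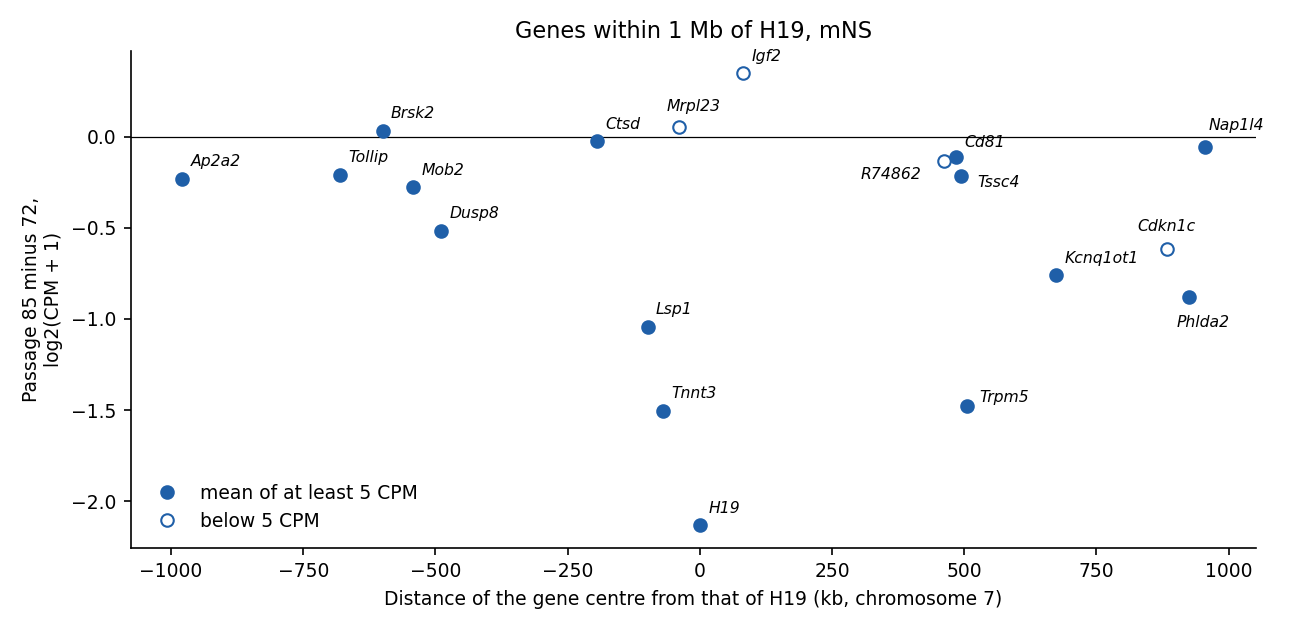
Difference from passage 72 to 85 in log2(CPM + 1) of the 19 genes in the table within 1 Mb of H19, against the distance of their centres from that of H19; open circles are genes with a mean below 5 CPM. H19 (-2.13), Tnnt3 (-1.5), Trpm5 (-1.48) and Lsp1 (-1.04) lie below -1, and Cd81, at -0.11, lies between H19 and Trpm5.

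The rest of the Notch pathway did not share the size of the Dll3 change. Of 16 kept genes 5 were lower at both steps, a share near that of all genes (31.2%, against 28.7%), and 2 were higher at both (12.5%, against 28.3%). Dll3 was the 1 called (6.25%, against 0.405%). The ligand gene Dll1 was at 17.1, 9.43 and 9.70 CPM and the ligand gene Jag2 at 21.7, 27.5 and 30.5 CPM, so ligands went both ways. The receptors Notch1 (70.5, 66.6 and 64.9 CPM) and Notch2 (77.9, 76.8 and 78.9 CPM) hardly differed. Apart from Dll3, the Notch genes given here were picked out after their values were seen.

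Signalling by TGF-beta and BMP was the list with the lowest median. Of 13 kept genes 10 were lower at both steps (76.9%, against 28.7% of all genes), and the list median was -0.40 from passage 72 to 85 and -0.28 from 72 to 77. Id3, an inhibitor of basic helix-loop-helix factors that BMP signalling induces, fell from 17.7 over 8.74 to 5.74 CPM (3.09-fold lower, 2.39 to 4.03). Its relatives Id2 (90.4, 75.9 and 62.9 CPM) and Id1 (7.17, 5.49 and 5.17 CPM) were lower by less. The receptor genes Tgfbr2 (93.2, 75.2 and 72.5 CPM), Acvr1 and Acvr2a and the ligand gene Tgfb3 (59.4, 44.4 and 38.1 CPM) were also below their first level, while the ligand gene Gdf11 was not (23.3, 26.2 and 29.9 CPM). Only Id3 of these reached the size asked, and the others were picked out after their values were seen.

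Adhesion and guidance genes were among the fallers too. Pcdh10, a protocadherin of the nervous system, fell from 56.4 over 26.4 to 19.3 CPM, and Cdh6 from 10.3 over 7.65 to 3.96 CPM. Of 16 kept cadherins and protocadherins 8 were lower at both steps (50%, against 28.7% of all genes) and 1 was higher (6.25%, against 28.3%), with a median of -0.32. The transcripts of this list are long (median 5196.5 bases), and centred on length its median was -0.26. In axon guidance Sema3e, a repulsive semaphorin, fell from 38.7 over 17.2 to 9.13 CPM, while the ephrin receptor gene Ephb4 rose from 11.1 over 21 to 29.3 CPM and the plexin Plxnc1 from 3.62 over 6.34 to 9.49 CPM. The other large falls were of genes with unrelated roles: Fbxo32, a muscle ubiquitin ligase subunit, was at 92, 43 and 30.1 CPM, Hip1r, which links clathrin coats to actin, at 23.3, 12.3 and 5.52 CPM, and Grasp, a scaffold of glutamate receptors, at 168, 81.0 and 63.6 CPM.

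Of the 42 falls 32 were in no list, and several of these encode proteins of neural membranes and muscle, grouped here after their values were seen. Omg, an oligodendrocyte myelin glycoprotein, fell from 16.2 over 9.51 to 6.51 CPM, and Tmeff2, a transmembrane protein of the brain, from 72.5 over 45.7 to 34 CPM (2.13-fold lower, 1.91 to 2.38). The teneurin Tenm4 was at 46.4, 26.4 and 17.6 CPM, the glutamate receptor partner Neto1 at 67.5, 40.4 and 32.5 CPM and the adhesion protein Amigo2 at 15.3, 10.3 and 7.01 CPM. In these the first step was the larger. Ttn, the giant sarcomere protein titin, was at 13.5, 6.11 and 3.96 CPM, and with Tnnt3 and Fbxo32 makes 3 muscle-associated genes among the 14 largest falls. Glce, an epimerase of heparan sulfate synthesis, was at 283, 174 and 139 CPM.

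Signalling genes outside these pathways had few calls. Of 16 kept immediate early genes 1 rose (6.25%, against 0.751% of all genes), Ier3 (70.4, 126 and 145 CPM). Lower at both steps were 7 (43.8%, against 28.7%), among them the stress-induced factor Atf3 (48.8, 31.9 and 24.2 CPM). Feedback genes of EGF and FGF, the growth factors in the medium, had a median of -0.13 over 14 and no call; the phosphatase gene Dusp6 was at 504, 447 and 420.5 CPM. Of 17 kept p53 targets 1 rose (5.88%, against 0.751% of all genes), the death receptor gene Tnfrsf10b (2.79, 5.64 and 6.73 CPM). It had 37 reads at passage 72, and its second step was within counting error. The CDK inhibitor genes Cdkn2a (125, 135 and 123 CPM) and Cdkn1a (54.6, 48.8 and 49.4 CPM) hardly differed. Among ion channels Kcna6, a voltage-gated potassium channel, rose from 26.6 over 49.3 to 59.1 CPM against the fall of Trpm5. Of the 44 lists with a kept member 27 had no called one, and 19 had a median within 0.1 of 0.

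Markers of cell identity shifted by less than the size asked, with few exceptions. The neural stem and progenitor list had 7 of 9 kept genes lower at both steps (77.8%, against 28.7% of all genes) and a median of -0.24. Nes, the intermediate filament gene of neural progenitors, was at 1223, 871 and 773 CPM, Sox2 at 198, 186 and 168 CPM, and Vim at 3763, 3682 and 3533 CPM, so these defining markers stayed present at every passage. In the oligodendrocyte progenitor list (median 0.07 over 12) Pdgfra, the receptor for platelet-derived growth factor, was at 196, 284 and 322 CPM, the proteoglycan Bcan at 327, 206 and 171 CPM and Olig2 at 414, 437 and 459 CPM, so members went in opposite directions. Tnr, a matrix protein of oligodendrocyte lineage cells, rose from 4.53 over 7.04 to 11.3 CPM. Opalin, a myelin protein, rose from 1.81 over 7.19 to 8 CPM, while Mbp was at 45.5, 28.6 and 26.9 CPM and the myelin list as a whole had a median of -0.03. Tubb3, the neuronal tubulin, fell from 13.4 over 8.51 to 4.60 CPM and was the 1 called of 9 kept neuronal genes (11.1%, against 0.405% of all genes). Other neuronal markers went the other way or stayed level: Syt1, a synaptic vesicle protein, was at 4.83, 6.03 and 8.28 CPM (1.71-fold, 1.25 to 2.36), Gap43, a growth cone protein, at 229, 310.1 and 286 CPM and Mapt, the microtubule protein tau, at 63.9, 63.6 and 63.9 CPM. Over the neuronal list 2 genes were higher and 2 lower at both steps, and the median was -6.74e-05. Syt1, Gap43 and Mapt were picked out after their values were seen. In bulk libraries fewer cells of a type and less RNA per cell cannot be told apart.

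**Figure D5:**
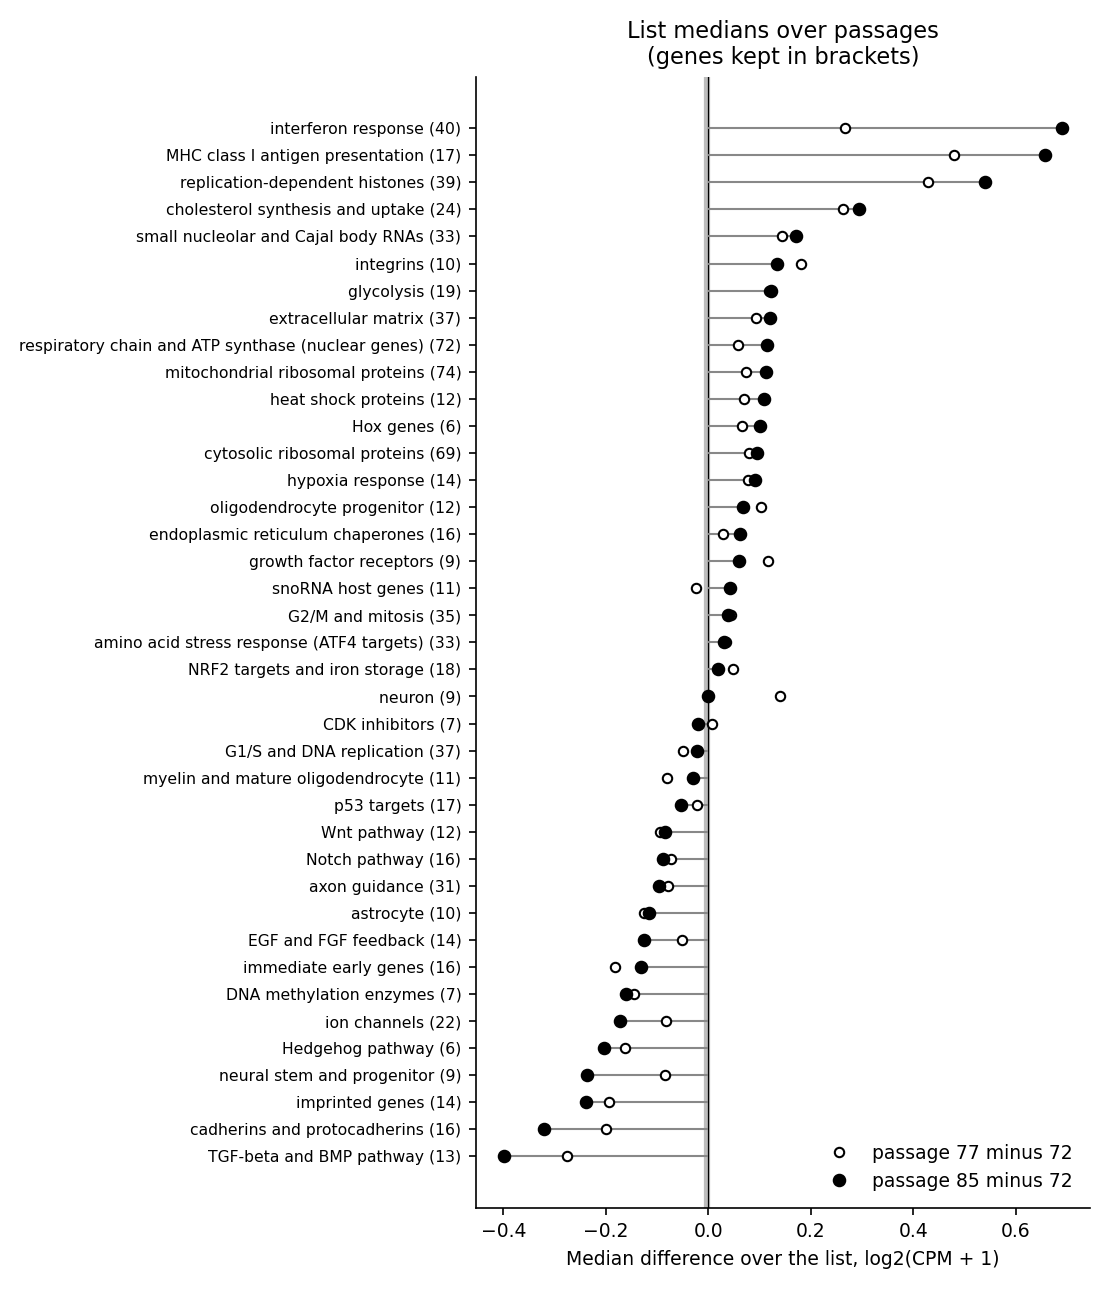
Median difference in log2(CPM + 1) over the kept members of each list with at least 5 of them, from passage 72 to 77 (open) and to 85 (filled); the grey line is the median of all kept genes. Medians run from -0.40 for TGF-beta and BMP genes to 0.69 for the interferon response, whose filled point lies furthest from its open one.

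Markers of other cell types were mostly absent or low, but a few were higher at the later passages. None of the 8 lymphocyte markers was in the table. Of the microglia and macrophage list 6 of 20 were in the table, and they summed to between 45.4 and 54.6 CPM; the defining gene Csf1r was at 0.0755, 0 and 0.0708 CPM. Cd14, a receptor for lipopolysaccharide in the same list, was at 5.96, 13.1 and 10.6 CPM (1.78-fold from passage 72 to 85, 1.35 to 2.37). Of the endothelial list 3 of 11 were in the table, summing to between 31.4 and 35.8 CPM, and among them Egfl7 was at 1.36, 4.48 and 4.96 CPM, below the limit. The 7 listed fibroblast and pericyte genes summed to 96.0, 137 and 232 CPM, nearly all of it Col3a1, a called rise, while Acta2, Tagln, Postn, Col6a3 and Pdgfrb stayed at or below 1.86 CPM. The single markers were picked out after their values were seen. The 14 genes of a list high in GL261 and low in mNS summed to between 13.9 and 18.3 CPM in mNS and to at least 4845 CPM in each GL261 library, and none of the 14 was kept. The part of other cells in the drift was not tested further.

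GL261 values, which the choice of genes did not use, were set beside the calls. In 32 of the 78 rising genes (41.0%) all GL261 libraries lay above all mNS libraries and in 23 (29.5%) below, beside 34.2% and 36.2% of all kept genes. Among the 42 falling genes 12 (28.6%) lay above in GL261 and 26 (61.9%) below, so more of the falls than of all kept genes were lowest in GL261. Under 1 CPM in every GL261 library were 14 of the 42 falls and 8 of the 78 rises, as were 1.40% of all genes. Called genes were also low in mNS, with a median of the mean level of 13.7 CPM for rises and 11.5 CPM for falls. Over all kept genes that median was 45.5 CPM. No test was made of these shares. Trpm5 and Tnnt3 were among the falls under 1 CPM throughout GL261, where Tnnt3 was listed at 0. Over the GL261 passages, 44 of the 78 rising genes were lower at both 33 and 34 than at 17 and 23 were higher, beside 38.5% and 40.9% of all genes.

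The called genes were spread over the genome. Positions were found for 99.3% of the kept genes; rises lay on 19 and falls on 18 of the 20 chromosomes with at least 100 kept genes, and chromosome medians lay between -0.087 (chromosome 7) and 0.086 (chromosome 13). Within 200 kb of each other lay the rising pairs Col6a1 and Col6a2, Mmp19 and Itga7, Oas1a and Oas1b, and Trim12c and Trim30a, the rising trio Gbp3, Gbp7 and Ccbl2, and the falling neighbours Hip1r and Vps37b beside those at H19. Rising genes had a median transcript length of 3115 bases and falling genes of 5258.5 bases, and across the 10310 genes with a length, which are not independent replicates, the difference from passage 72 to 85 had a Spearman correlation of -0.255 with transcript length. Centred on transcript length, 73 genes rose and 38 fell, of which 67 and 33 were among the genes called before; the part of length in single results was not tested further.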

How the data were processed

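Libraries were stranded, made from total RNA without ribosomal RNA, and sequenced as single reads, per the labels' protocols. For alignment, counting and scaling no steps are described, but mm10, edgeR 3.4.2, HTSeq 0.5.3p9 and TopHat2 (version 2) appear in the submitters' processing notes. The deposited values are a normalised signal in CPM with TMM factors, per the labels; the authors' limit on low genes is not stated. Values divided by the worth of 1 read came out whole within 0.001 reads for 100% of genes, and these reads gave depths and intervals. Groups came from the sample titles.

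All differences were taken after log2(CPM + 1), so those of low genes are understated. The calls used order and size, without a test. The 48 gene lists, 2 of whose symbols were matched by an older name, and the rules were chosen with earlier results of these data known, and the rise of interferon genes and the fall of H19 over mNS passages were among those results. Named genes are the 14 largest rises and falls with at least 10 CPM in their highest library (numbered, clone-named and small RNA genes left out), up to 4 called members of each list (the 2 most abundant where none was called) and 15 fixed genes; other names were chosen after their values were seen. Positions and transcript lengths come from GENCODE M21 (GRCm38). Alternatives were other pseudocounts, limits, folds, scalings, single steps, and straight lines in passage fitted with limma 3.58.1 and with edgeR 4.0.16 on the recovered reads in R 4.3.3. Calls, intervals and fits were tested on simulated data with the same spread in all libraries. The real mNS pairs ranged in chi-square per degree of freedom from 3.34 to 17.7. The simulation therefore does not show how the calls behave at the spread of these data. The rest used numpy 2.4.6, pandas 2.3.3, matplotlib 3.10.9 and scipy 1.17.1 in Python 3.11.15. All columns of the table were mapped to samples.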

Additional observations from a re-analysis of the deposited data

Results flagged for a closer look

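For the interferon response list the direction over passages differed between the cell forms: the list median was 0.69 from passage 72 to 85 in mNS and -0.29 from passage 17 to 34 in GL261, and both later libraries lay on the same side in each. For axon guidance the medians were -0.096 in mNS and 0.18 in GL261. These differences were not tested, since each passage is 1 library, and the passage ranges of the cell forms do not overlap.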

How the results depend on the processing

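With 1 library per passage, depth limits what can be seen of genes below about 10 CPM, and no alternative replaces a replicate. Rising and falling genes numbered 263 and 223 at a fold of 1.5 and 3 and 2 at a fold of 4; with a mean of at least 20 CPM they numbered 28 and 15, and falls numbered 66 with a mean of at least 1 CPM and 68 with no limit. Genes highest or lowest at passage 77 numbered 0 in the report's setting, 2 with at least 1 CPM or no limit, and 3 at a fold of 1.5. Leaving out each library in turn gave between 4 and 79 rises and between 2 and 46 falls, the lowest without passage 72 and the highest without passage 77; without passage 85 there were 27 and 17. A straight line in passage, which has 1 residual degree of freedom, called 185 rises and 211 falls in limma at an adjusted p under 0.05, and 284 and 349 in edgeR's quasi-likelihood test; these fits use the same 3 libraries that chose the genes and lend the calls no support. Pseudocounts, 3 rescalings and the counting rule kept both counts within 1.5 times. No named gene with a call changed direction under any setting. For the single steps and the other pseudocounts this was fixed in advance. A call asks both steps to go the same way, and a pseudocount keeps the order of the values. Under the other settings the interferon median lay between 0.60 and 0.74 and that of TGF-beta and BMP genes between -0.40 and -0.29. List medians near 0 changed sign under at least 1 setting, among them those of hypoxia, Hox, astrocyte, oligodendrocyte progenitor and myelin genes, cytosolic ribosomal proteins (-0.0057 to 0.12) and the respiratory chain (-0.0078 to 0.14), both lowest when centred on transcript length, an alternative chosen after seeing the data. No paired analysis was possible because each passage is 1 library.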
